A study of Mus musculus with 12 samples.

Results

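The comparison of luteolin-added high-fat diet (LU) with high-fat diet (HFD) rested on 6 of the 12 sequenced livers, namely LU 2, LU 3 and LU 8 against HFD 12, HFD 15 and HFD 18, chosen by the group and mouse number in their labels. All 12 livers came from male C57BL/6J mice aged 21 weeks, housed singly and fed their diet for 16 weeks. The LU mice received the same fat-rich diet as the HFD mice with 0.003% (w/w) luteolin mixed in, the CLE mice received it with 1.5% (w/w) of an extract of Chrysanthemum morifolium leaves, and the ND mice received a normal diet. Mice were fasted before the livers were taken, total liver RNA was sequenced as mRNA libraries, and the 3 livers of each group were described as representative of a larger group, so a bias in their choice was not tested. Expression was deposited as FPKM (fragments mapped to a transcript, scaled to its length and to the size of the library), which carries no read counts, so the depth of the libraries is unknown. FPKM were summed over all transcripts of a gene name, and the 11566 names that averaged 0.5 FPKM or more across all livers were compared on log2(FPKM + 1) by limma, with Benjamini-Hochberg adjusted p under 0.05 as the threshold. The comparison addressed which liver transcripts differ once luteolin, a constituent of the extract, is added to the high-fat diet.

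Luteolin is a flavone found in many edible plants. The mouse liver is a sexually dimorphic organ, in which the pulsed release of growth hormone in males maintains, through the factor STAT5B, a male set of transcripts (major urinary proteins, certain cytochromes P450 and steroid enzymes) and keeps a female set low. Another layer of control comes from sensors of foreign and reactive compounds. CAR and PXR are nuclear receptors that induce cytochromes P450 and sulfotransferases, and NRF2 is a factor that, once released from KEAP1, induces glutathione S-transferases and enzymes of glutathione synthesis.

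In LU livers, 5 of 18 male-biased genes tested were higher than in HFD livers, and 4 of 12 female-biased genes, 8 of 32 genes of the Cyp2 family and 8 of 22 NRF2 targets were lower. Without members that reached the filter of 0.5 FPKM through 1 group alone, 2 of 10 female-biased and 6 of 29 Cyp2 genes were lower. The Cyp2 family was taken up after its values were seen. The genes for liver glycogen synthase and insulin-like growth factor binding protein 2 were higher in LU livers. Of the 11566 gene names, 119 (1.03%) passed the test, of which 35 (0.303%) were higher and 84 (0.726%) were lower in LU livers. At an unadjusted p under 0.05, 2346 names (20.3%) passed. The values of the 3 LU livers lay above those of the 3 HFD livers for 13.1% of all names and below them for 16.9%, and did not overlap for any of the 119. The log2 fold change exceeded 1 in size for 43 of the 119, and the median over all names was -0.02. Of the 119 names, LU 8 was the LU liver nearest to the HFD mean for 77, LU 2 for 26 and LU 3 for 16. In whole-liver RNA, fewer cells of a type and less RNA per cell cannot be told apart.

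**Figure D1:**
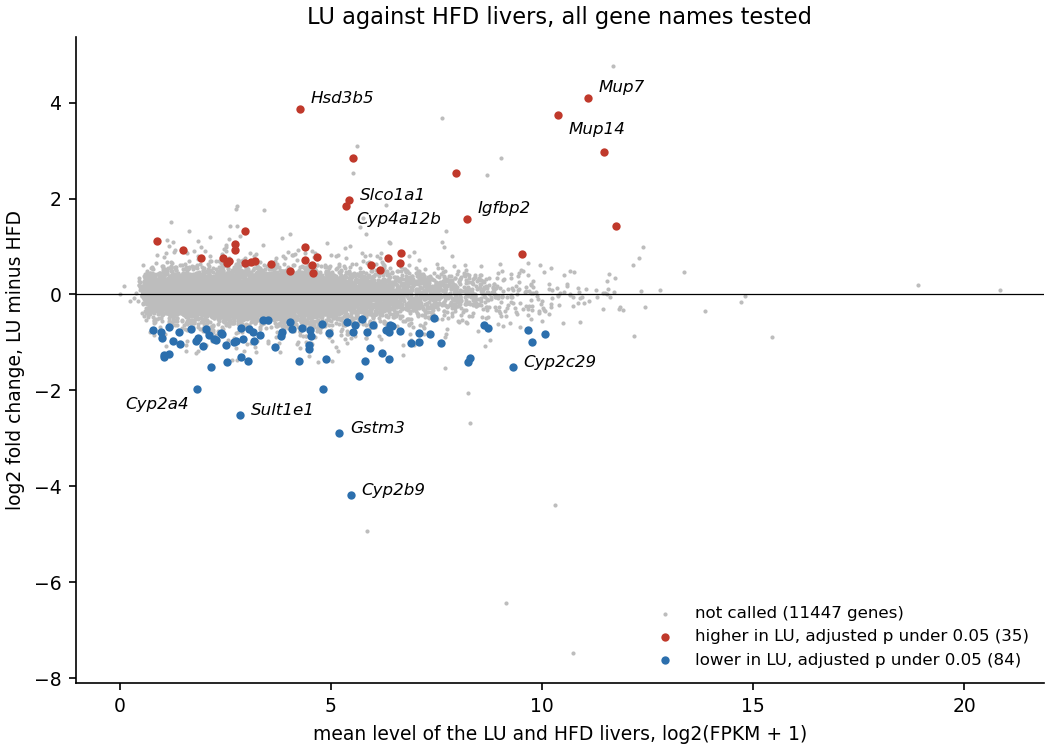
Each point is one of the 11566 gene names, with its mean level over the LU and HFD livers in log2(FPKM + 1) on the horizontal axis and the log2 fold change of LU against HFD livers (n = 3 each) on the vertical axis. The 35 names that passed higher (red) include Mup and male-biased genes at up to 4.09, and the 84 that passed lower (blue) reach -4.17 with Cyp2b9.

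The libraries of the groups differed in their relation to GC content and, less cleanly, to transcript length. Across 11507 names with a known GC content, Spearman's correlation of GC content with how far a library stood from the average liver lay between 0.21 and 0.36 in the 3 LU livers and between -0.37 and -0.14 in the 3 HFD livers. The median log2 fold change of LU against HFD ran from -0.19 in the tenth of names with the lowest GC content to 0.18 in the tenth with the highest. The same correlation with length lay between -0.29 and -0.13 in LU livers and was -0.15, 0.28 and 0.22 in HFD livers, so that the groups overlapped. GC relation and diet cannot be told apart here, since every LU library lay on one side and every HFD library on the other. Each library was therefore also smoothed against GC content and the trend subtracted, after which 74 of the 117 called names with a known GC content still passed, and 104 of them did after the same correction for length. Which liver entered the fit also moved the number of calls. Without LU 3, 11 names passed, without HFD 18, 28, without HFD 15, 30, without LU 2, 39, without HFD 12, 56 and without ND 4, 71. Without LU 8, 213 names passed, without CLE 2, 210 and without CLE 4, 545. The CLE and ND livers take part in the shared estimate of spread, and a fit of the LU and HFD livers alone called 262 names, among them 103 of the 119. With 1 LU or HFD liver left out, 10 of the 119 names passed in all 6 fits.

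**Figure D2:**
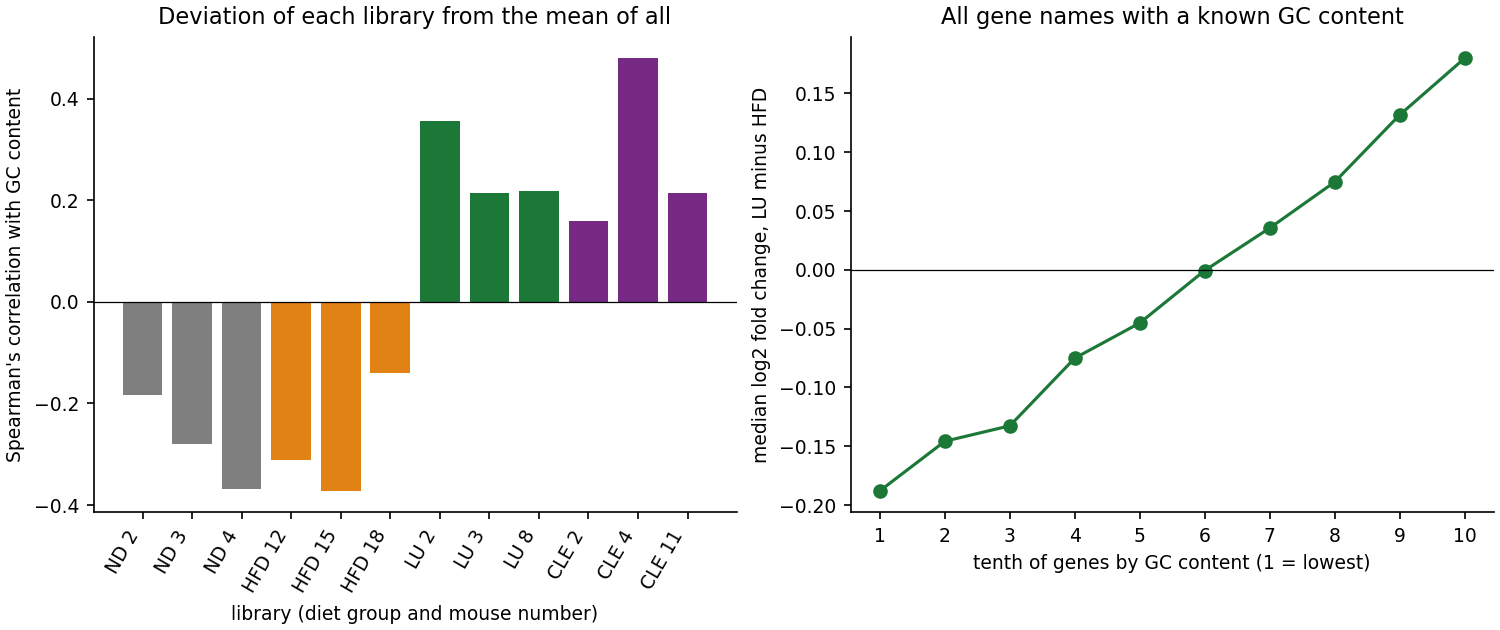
Left, bars give, for each library, Spearman's correlation of GC content with the signed difference from the average liver, over 11507 gene names. Bars are above 0 in the LU and CLE libraries and below 0 in the HFD and ND libraries. Right, points give the median log2 fold change of LU against HFD in 10 equal bins of names ordered by GC content, from -0.19 to 0.18.

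**Figure D3:**
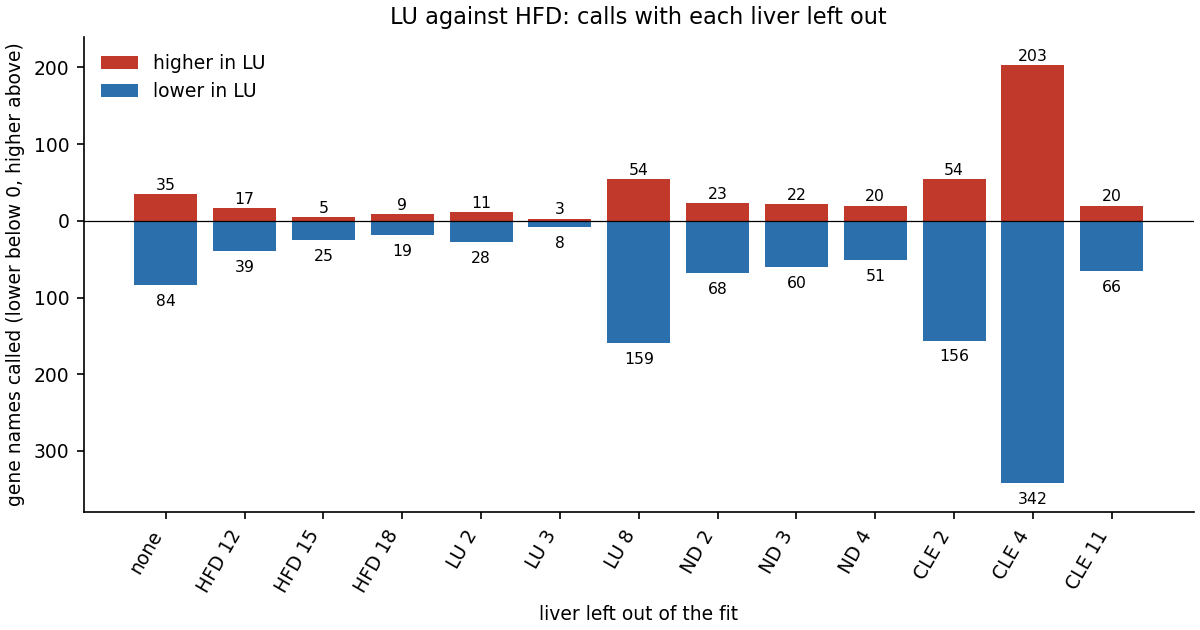
Bars give the number of gene names with an adjusted p under 0.05 for LU against HFD, higher above 0 and lower below 0, with all 12 livers (none left out) and with each liver left out of the fit. The total ran from 11 without LU 3 to 545 without CLE 4.

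Among genes with a male bias in mouse liver, 5 of 18 tested passed, all higher in LU livers, against 0.303% of all names. All 18 had a log2 fold change above 0, with a median of 1.13, where the median over all names was -0.02. Below, the values of single livers follow the order HFD 12, HFD 15, HFD 18 and LU 2, LU 3, LU 8. Hsd3b5 (chromosome 3 of GRCm38, 98618634 to 98630252, minus strand), a steroid dehydrogenase restricted to male liver, stood at 0.6, 0.169 and 1 FPKM in HFD livers and at 49.4, 55.1 and 3.03 FPKM in LU livers. The LU mean was 60.6-fold higher (log2 fold change 3.86, standard error 0.83, adjusted p = 0.048). The groups did not overlap, but LU 8 lay near the HFD livers and far below LU 2 and LU 3. Slco1a1 (chromosome 6, 141907282 to 141946962), an uptake transporter for organic anions, was at 18.4, 11.4 and 17.9 FPKM in HFD livers and at 81.1, 90.4 and 35.4 FPKM in LU livers, a 4.33-fold difference (log2 fold change 1.97, standard error 0.35, adjusted p = 0.019). LU 8 was again the lowest of the LU livers. Cyp4a12b (chromosome 4, 115411624 to 115439034), a fatty acid hydroxylase, was at 13.6, 15.9 and 20.4 FPKM in HFD livers and at 55, 83.6 and 51.5 FPKM in LU livers, a 3.81-fold difference (log2 fold change 1.85, standard error 0.19, adjusted p = 0.0014). Here LU 8 stood close to LU 2, and all LU livers were more than 2 times above the highest HFD liver. The other members called were Mup7 and Mup20. Summed over the 18 genes, HFD livers held 4407, 3014 and 3814 FPKM and LU livers 13329, 15387 and 9650.1 FPKM. ND livers held 9364 to 12365 FPKM and CLE livers 7482 to 10631 FPKM. In LU livers most of this sum came from Mup7 and Mup20, and in LU 8 most came from Mup20 alone. The sum therefore says little of the other members. The number of the 18 called was 1 without HFD 15, LU 2 or LU 3, 2 without HFD 18, 3 without HFD 12, any 1 ND liver or CLE 11, 8 without CLE 4 and 10 without LU 8. With GC correction 3 of the 18 passed, the adjusted p of Hsd3b5 then being 0.064 and that of Mup7 0.051. Cyp4a12b passed with any of the 6 LU and HFD livers left out, Slco1a1 did not pass without HFD 15, HFD 18, LU 2 or LU 3 (adjusted p up to 0.113, log2 fold change 1.72 to 2.38), and Hsd3b5 and Mup7 passed in 1 of the 6 fits, that without LU 8 (adjusted p up to 0.21 in the others).

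The major urinary proteins are small pheromone carriers that male mouse liver secretes in large amounts. Of 20 Mup genes tested, a family taken up after its values were seen, 7 were higher in LU livers and 0 lower, against 0.303% of all names called higher. At an unadjusted p under 0.05, 14 were higher and 1 lower, against 8.34% and 11.9% of all names. The median log2 fold change was 1.38. It was below 0 for 4 of the 20, none of which passed, and Mup9, listed at 0 in LU 3, had the lowest at -4.39 (adjusted p = 0.24). The summed Mup level was 13213, 9328 and 9724 FPKM in HFD livers and 30571, 38665 and 18339 FPKM in LU livers, so that each LU liver exceeded each HFD liver and LU 8 was the lowest. Mup7 (chromosome 4, 60066469 to 60070475) was at 252, 66 and 195 FPKM in HFD livers and at 5006, 7116 and 457 FPKM in LU livers, a 24.5-fold higher mean (log2 fold change 4.09, standard error 0.85, adjusted p = 0.042). Mup14 was at 269, 80.9 and 153 FPKM in HFD livers and at 2638, 4122 and 736 FPKM in LU livers, a 14.9-fold difference (adjusted p = 0.019). In both genes, LU 2 and LU 3 were at the level of the ND livers (1957 to 4840.4 FPKM for Mup7) or above it, and LU 8 was below. Mup20 (chromosome 4, 62050234 to 62054158), which encodes the male pheromone darcin, was an exception in the order of the livers. It stood at 2427, 1463 and 1662 FPKM in HFD livers and at 4253, 3915 and 7037 FPKM in LU livers, with LU 8 the highest of all (log2 fold change 1.44, adjusted p = 0.025). Mup19, Mup12, Mup1 and Mup5 had log2 fold changes of 2.96, 2.84, 2.54 and 1.12 (adjusted p = 0.04, 0.042, 0.047 and 0.042). The Mup genes are near copies of each other in 1 cluster on chromosome 4, fragments can be shared out between them, and the value of a single Mup gene is therefore less certain than the sum. With GC correction 4 of the 7 passed. Mup14, Mup19 and Mup20 did not pass without HFD 15, HFD 18, LU 2 or LU 3 (adjusted p up to 0.116, 0.184 and 0.148), and Mup12, Mup1 and Mup5 passed in that of the 6 fits without LU 8 alone (up to 0.204, 0.218 and 0.209 in the others).

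Female-biased genes moved the other way. Of the 12 tested, 4 were lower in LU livers and 0 higher, against 0.726% of all names called lower. Their median log2 fold change was -0.85. All 12 had a negative log2 fold change, where 6097 of the 11566 names did. Cyp2a4 and Hao2 reached the filter of 0.5 FPKM only through the HFD livers, the other 9 livers averaging less, so they had to be lower outside the HFD group and lend the count no support. Of the other 10 genes 2 were lower, Cyp2b9 and Sult1e1, and the median was -0.53. Cyp2b9 (chromosome 7, 26173411 to 26210661), a cytochrome P450 of female liver, was at 71, 113 and 61.2 FPKM in HFD livers and at 1.8, 1.27 and 12.7 FPKM in LU livers, a 15.5-fold lower mean (log2 fold change -4.17, standard error 0.62, adjusted p = 0.0095). It was the largest drop among the 119 names, with LU 8 nearest to the HFD livers. Sult1e1 (chromosome 5, 87575969 to 87591594), the sulfotransferase that inactivates oestrogens, was at 12, 6.61 and 15.2 FPKM in HFD livers and at 0.927, 2.12 and 0.419 FPKM in LU livers, a 9.74-fold difference (log2 fold change -2.52, standard error 0.28, adjusted p = 0.0016). Here LU 8 was the farthest from the HFD livers and LU 3 the nearest. Cyp2a4 (chromosome 7, 26307169 to 26315088), a steroid hydroxylase, was at 4.18, 5.66 and 4 FPKM in HFD livers and at 0.336, 0.237 and 0.773 FPKM in LU livers, a 10.3-fold difference (log2 fold change -1.96, standard error 0.21, adjusted p = 0.0014). Hao2, a peroxisomal hydroxyacid oxidase, fell from 1.77, 2.44 and 1.58 FPKM to 0.15, 0.0766 and 0.303 FPKM (log2 fold change -1.31, adjusted p = 0.001), and it is listed at 0 in the 3 ND livers. Cyp2b9 and Sult1e1 passed with GC correction. Sult1e1 also passed with any 1 LU or HFD liver left out, while the adjusted p of Cyp2b9 was 0.058 without LU 3. Cyp2a4 and Hao2 passed in all these fits too, which lends no support, since they reached the filter only through the HFD livers. The mice were labelled male, and the Y-linked gene Ddx3y was at 20.4 to 25.4 FPKM in LU livers and 24.7 to 30.7 FPKM in HFD livers.

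**Figure D4:**
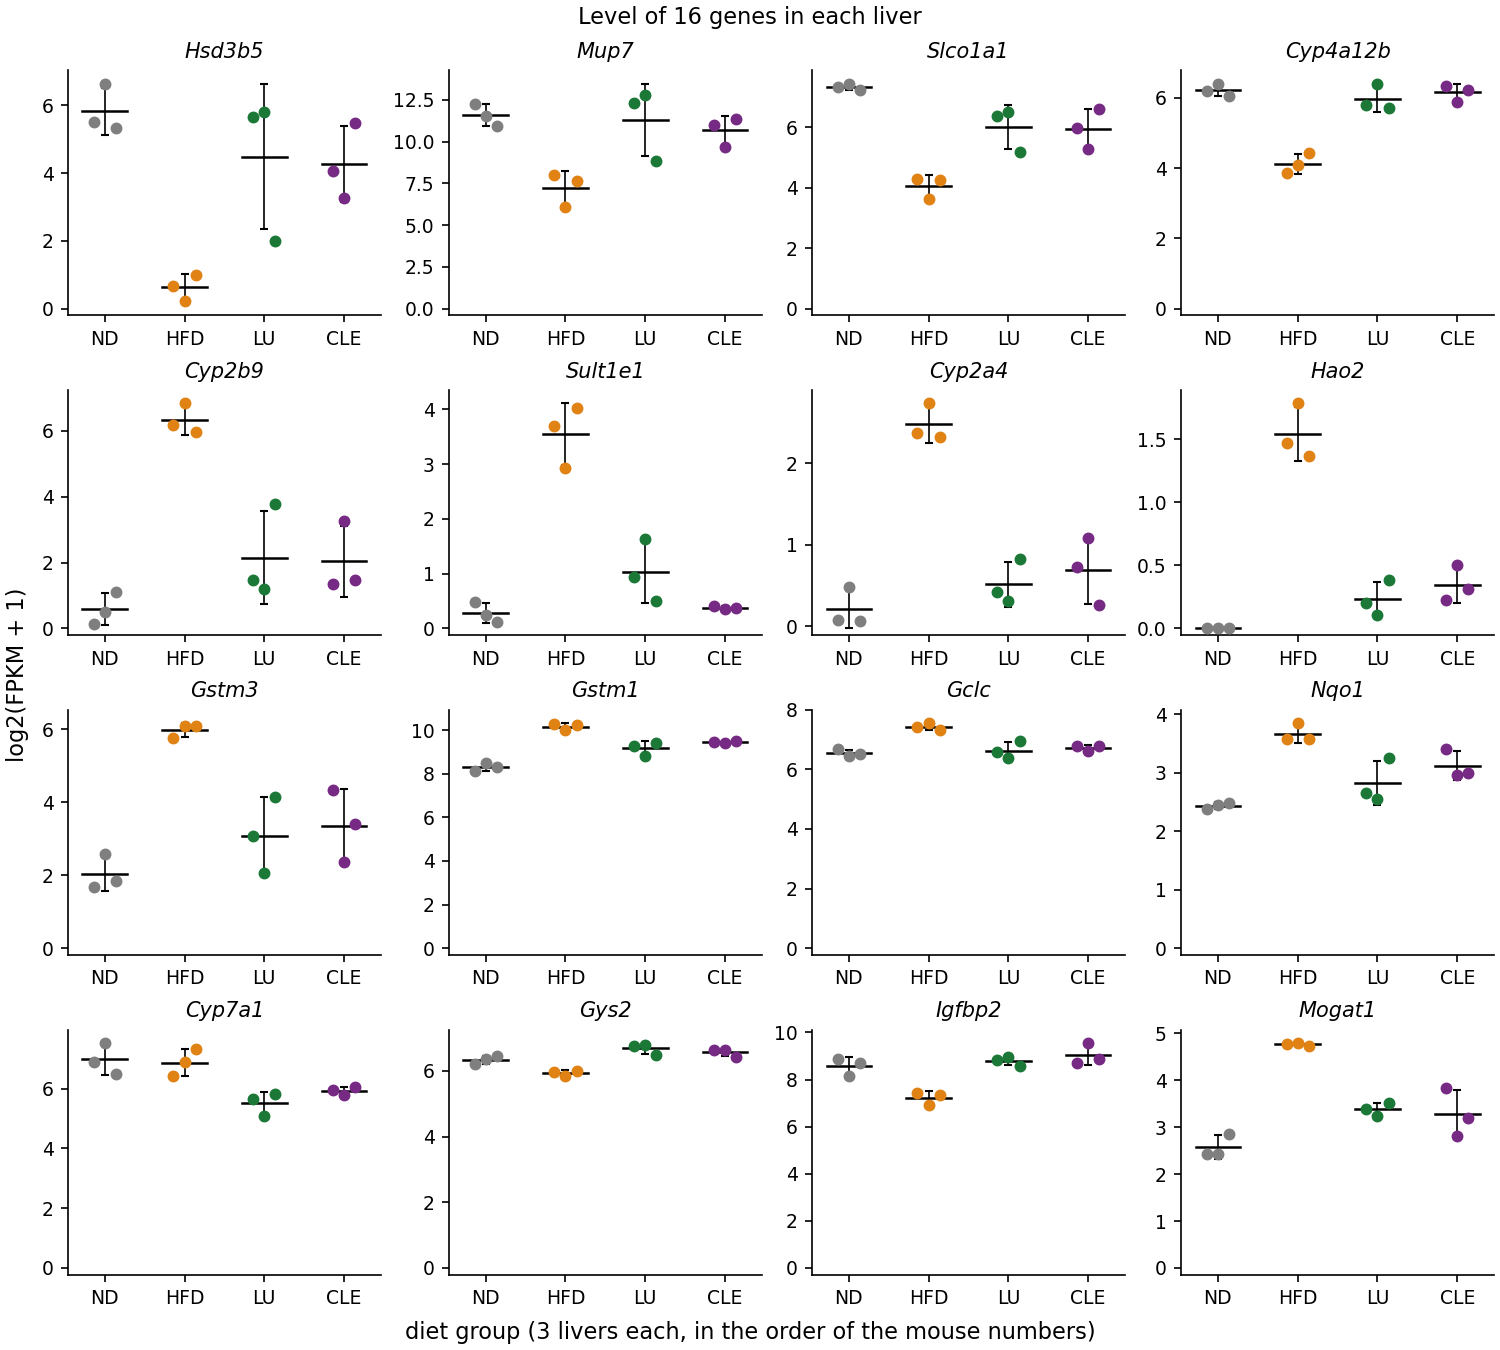
Each panel gives log2(FPKM + 1) of 1 gene in the 12 livers (points, 3 per diet group in the order of the mouse numbers), with the group mean (line) and SD (error bar). In all 16 panels the LU livers lay apart from the HFD livers, as they did for all 119 called names. In Hsd3b5, Mup7 and Cyp2b9 the third LU liver, LU 8, lay nearest to the HFD livers.

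Targets of CAR and PXR included 5 lower genes among the 17 tested and 0 higher ones, against 0.726% of all names called lower. The median log2 fold change was -0.24. Cyp2b9 and Sult1e1, described above, belong to both lists. Cyp2b10 reached the filter only through the HFD livers, and of the other 16 genes 4 were lower. Cyp2b10 (chromosome 7, 25897620 to 25926624), the classical target of CAR in mouse liver, was at 2.26, 2.64 and 0.944 FPKM in HFD livers and at 0.0955, 0.147 and 0.318 FPKM in LU livers, a 10.4-fold difference (log2 fold change -1.27, standard error 0.21, adjusted p = 0.015). Cyp2c29 (chromosome 19, 39269405 to 39330713), an epoxygenase of unsaturated fatty acids, was at 1066, 960.0 and 782 FPKM in HFD livers and at 396, 363 and 236 FPKM in LU livers (log2 fold change -1.52, standard error 0.20, adjusted p = 0.0045). Cyp2c55 was at 2.02, 2.95 and 2.93 FPKM against 1.15, 0.441 and 0.749 FPKM (log2 fold change -1.04, adjusted p = 0.014). The LU and HFD livers did not overlap in any of the 3 genes, which held for all 119 called names. Over all names, the 3 LU values lay below the 3 HFD values for 16.9%. Cyp3a11, the main inducible cytochrome of PXR, was at 2486, 2286 and 2055 FPKM against 1599, 1339 and 1635 FPKM and did not pass (log2 fold change -0.58, adjusted p = 0.11). All 5 called genes passed with GC correction, which for Cyp2b10 lends no support, since it reached the filter only through the HFD livers. Without HFD 15, 3 of the 5 passed, and without LU 3, 2 passed (the adjusted p of Cyp2b10 was up to 0.079 and that of Cyp2c55 up to 0.085 in such fits).

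The family of Cyp2 genes as a whole, taken up after its values were seen, had 8 of 32 tested genes lower and 0 higher. Of all names, 0.726% were called lower. The same number of Cyp2 genes passed with GC correction. Leaving out the 3 members that reached the filter through 1 group, 6 of 29 were lower. The log2 fold change was above 0 for 7 of the 32. Besides the genes named above, the lower genes were Cyp2a22 with a log2 fold change of -1.97, Cyp2c38 with -1.39 and Cyp2c39, which was at 5.71, 8.06 and 6.28 FPKM in HFD livers against 2.53, 2.28 and 3.23 FPKM (adjusted p = 0.0021, 0.0024 and 0.0095). Cyp2a22 was at 48.4, 41.5 and 40.2 FPKM in HFD livers and at 9.76, 6.63 and 16.6 FPKM in LU livers. It belongs to the same subfamily as Cyp2a4, and related genes of these clusters on chromosomes 7 and 19 can share fragments as the Mup genes do. The summed level of all 47 Cyp2 genes in the table was 14382, 12068 and 13444 FPKM in HFD livers and 13536, 12369 and 11085 FPKM in LU livers, and the groups overlapped. Cyp2c39 did not pass without LU 3 (adjusted p = 0.059).

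Among NRF2 targets, 8 of 22 tested were lower in LU livers and 0 higher, against 0.726% of all names called lower. The log2 fold change was below 0 for 21 of the 22, with a median of -0.47. Summed over the list, HFD livers held 3626, 3491 and 3556 FPKM and LU livers 2340.1, 1799 and 2312 FPKM, beside 1572 to 1695 FPKM in ND livers and 2277 to 2326 FPKM in CLE livers. The genes that passed encode 4 glutathione S-transferases, the catalytic subunit of glutathione synthesis (Gclc), a quinone reductase (Nqo1), the enzyme that supplies glucuronic acid for conjugation (Ugdh) and a carboxylesterase (Ces1g). Upstream sequence is shown for Gsta3 and Ugdh, the called members whose RefSeq promoter (250 bases before to 50 after the start, build GRCm38.p6) held the antioxidant response element TGACNNNGC on either strand. Capitals mark the match, each sequence runs 5′ to 3′ on the strand of the gene and ends before the first base that GENCODE M21 places in an exon, and the windows are chr1:21240335-21240584 (plus strand) and chr5:65435950-65436092 (minus strand).
Gsta3: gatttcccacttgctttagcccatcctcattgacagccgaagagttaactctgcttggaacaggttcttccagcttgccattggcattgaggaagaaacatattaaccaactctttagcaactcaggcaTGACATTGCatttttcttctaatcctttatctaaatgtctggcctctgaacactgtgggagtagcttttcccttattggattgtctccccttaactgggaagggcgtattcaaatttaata
Ugdh: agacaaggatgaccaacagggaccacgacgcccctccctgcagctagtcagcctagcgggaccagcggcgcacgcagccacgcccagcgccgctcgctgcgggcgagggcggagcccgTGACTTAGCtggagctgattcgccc
The match in Gsta3 began 121 bases and that in Ugdh 132 bases before the RefSeq start, and a second match in Ugdh, at 94 bases, lay in an M21 exon and is not shown. Of all 32851 promoters in the table, 12.4% held the element, against 2 of the 8 promoters (25%) that were found for 7 of the 8 called members. The letters TTCNNNGAA, the palindrome that STAT factors can bind, were in 8.30% of all promoters. They were in 0 of the 3 promoters found for 3 of the 5 called male-biased genes and in 0 of the 4 of called female-biased genes.

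Gstm3 (chromosome 3, 107963696 to 107969283) fell the most of the NRF2 list, from 53.3, 67.3 and 66.9 FPKM in HFD livers to 7.4, 3.14 and 16.7 FPKM in LU livers, a 6.87-fold lower mean (log2 fold change -2.89, standard error 0.50, adjusted p = 0.018). LU 8 was the highest of the LU livers. Gstm1 (chromosome 3, 108012255 to 108017973) was at 1229, 1018 and 1212 FPKM in HFD livers and at 616, 446 and 689 FPKM in LU livers (1.98-fold lower mean, adjusted p = 0.013). Gsta3 (chromosome 1, 21240589 to 21265661) was at 1037, 1046 and 955 FPKM against 753, 532 and 557 FPKM, a 1.65-fold difference (log2 fold change -0.74, adjusted p = 0.031). Gsta1, also a glutathione S-transferase, had the same direction at -1.35 (adjusted p = 0.042), and its level in the LU livers, 12.7 to 20 FPKM, stayed above that of the ND livers, 0.545 to 0.726 FPKM. Gclc (chromosome 9, 77754535 to 77794485) was at 172, 186 and 158 FPKM in HFD livers and at 94.6, 81.9 and 121 FPKM in LU livers, a 1.73-fold difference (log2 fold change -0.80, adjusted p = 0.017). Nqo1, which the list of aryl hydrocarbon receptor targets also holds (1 of 5 tested called), was at 11, 13.4 and 10.9 FPKM against 5.31, 4.87 and 8.56 FPKM (log2 fold change -0.85, adjusted p = 0.043). Ugdh (chromosome 5, 65413221 to 65435949) was at 100.4, 113 and 103 FPKM against 69.6, 65.9 and 65.4 FPKM (log2 fold change -0.65, adjusted p = 0.015), with LU livers within a narrow range. Ces1g had a log2 fold change of -1.02 (adjusted p = 0.014). Nfe2l2, the gene of NRF2 itself, was at 53.8, 48.5 and 47.1 FPKM against 39.7, 36.8 and 47.5 FPKM, groups that overlapped, and did not pass (log2 fold change -0.27, adjusted p = 0.21). Over the 17 glutathione S-transferase genes tested, a family taken up after its values were seen, 4 were lower and 0 higher, against 0.726% of all names called lower. With GC correction Gstm3, Gstm1, Gclc and Ces1g passed and the other 4 had adjusted p between 0.05 and 0.11. The number of members called was 0 without HFD 18, 0 without LU 3, 1 without HFD 15, 3 without LU 2, 4 without HFD 12 and 5 without ND 4, while the log2 fold changes of the 8 genes kept their sign.

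Of 18 genes of glucose handling and insulin signalling tested, 2 were higher and 1 was lower, against 0.303% and 0.726% of all names. The median log2 fold change was -0.05. Gys2 (chromosome 6, 142422613 to 142473109), the glycogen synthase of liver, was at 61.3, 55.8 and 63 FPKM against 108, 109.6 and 89.3 FPKM in LU livers (log2 fold change 0.75, standard error 0.11, adjusted p = 0.0096). All 3 LU livers were also above the 3 ND livers, at 73.4 to 86.9 FPKM. Igfbp2 (chromosome 1, 72824503 to 72852474), a secreted binding protein of insulin-like growth factors, was at 170.0, 118 and 161 FPKM in HFD livers and at 454, 497 and 385 FPKM in LU livers, a 2.97-fold difference (log2 fold change 1.57, standard error 0.23, adjusted p = 0.0095). Pck1, which commits carbon to gluconeogenesis, was at 784, 867 and 708 FPKM against 1207, 1042 and 1377 FPKM without overlap and did not pass (log2 fold change 0.62, adjusted p = 0.086). Gys2 and Igfbp2 passed with GC correction. Gys2 did not pass without HFD 15 or LU 3 (adjusted p up to 0.063), nor Igfbp2 without LU 3 (0.059).

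Genes of lipid handling contributed 3 further calls, 1 in each of 3 lists and all lower, against 0.726% of all names called lower. In the list of triglyceride synthesis and lipid droplets, 1 of 21 tested was lower. Mogat1 (chromosome 1, 78510991 to 78538173), a monoacylglycerol acyltransferase, was at 26.4, 26.6 and 25.6 FPKM in HFD livers and at 9.45, 8.47 and 10.4 FPKM in LU livers, with a small spread in both groups (log2 fold change -1.39, standard error 0.21, adjusted p = 0.0095, and 0.059 without LU 3). Of 16 genes of bile acid synthesis and transport, Cyp7a1 (chromosome 4, 6265612 to 6275633), the rate-limiting enzyme of the classical pathway, was the 1 called. It was at 83.8, 118 and 157 FPKM in HFD livers and at 49.8, 32.9 and 54.8 FPKM in LU livers (log2 fold change -1.35, standard error 0.27, adjusted p = 0.04). Its ND values, 118, 183 and 89 FPKM, overlapped those of the HFD livers, whereas those of Mogat1 lay below. Cyp7b1, of the alternative pathway and male-biased, was at 34.2, 26.5 and 28.3 FPKM against 96.9, 118 and 32.5 FPKM, with LU 8 among the HFD livers, and did not pass (adjusted p = 0.11). Cept1, which joins choline or ethanolamine to diacylglycerol, was the 1 of 12 genes of phosphatidylcholine and phosphatidylethanolamine synthesis called, at 57.5, 69.2 and 57.8 FPKM against 39.3, 44.3 and 45.4 FPKM (log2 fold change -0.50, adjusted p = 0.042, and 0.13 with GC correction). Cyp7a1 did not pass with GC correction either (adjusted p = 0.076), nor without HFD 15, HFD 18, LU 2 or LU 3 (up to 0.161), and Cept1 passed in 1 of the 6 fits with an LU or HFD liver left out, that without LU 8 (up to 0.211).

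In the list of acute phase and inflammation, 1 of 22 genes was higher and 0 lower, against 0.303% and 0.726% of all names. Socs3 (chromosome 11, 117966079 to 117970047), a feedback inhibitor of cytokine receptors that signal through STAT factors, was at 2.7, 3.6 and 4.02 FPKM in HFD livers and at 10.9, 12.8 and 7.21 FPKM in LU livers, a 2.99-fold higher mean (log2 fold change 1.33, standard error 0.25, adjusted p = 0.03). All LU livers were also above the ND livers, at 2.44 to 4.27 FPKM. It passed with GC correction (adjusted p = 0.031) and, of the fits with an LU or HFD liver left out, in that without LU 8 (up to 0.146 in the others). Saa4, a constitutive serum amyloid, was at 319.8, 265 and 228 FPKM against 154, 125 and 160.4 FPKM without overlap and lay just outside the threshold (log2 fold change -0.88, adjusted p = 0.054).

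**Figure D5:**
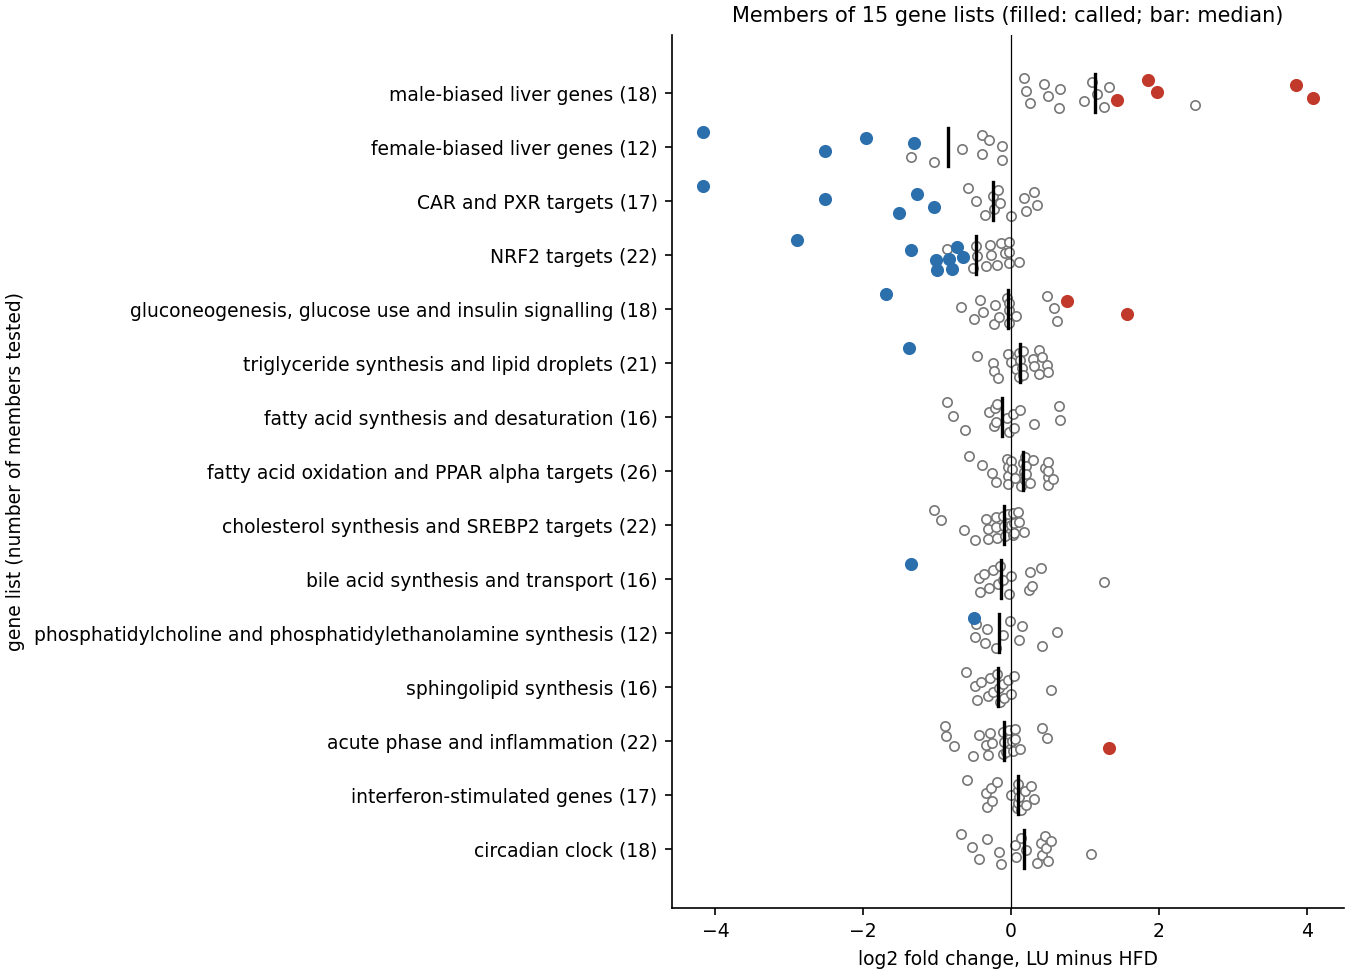
Points are the log2 fold changes (LU against HFD) of the tested members of 15 gene lists, filled red or blue where the member passed higher or lower, with the median as a bar and the number tested in brackets. Members of the male-biased list all lie above 0 (median 1.13), those of the female-biased list all below 0 (median -0.85, of which Cyp2a4 and Hao2 reached the filter only through the HFD livers), and 8 of the 22 NRF2 targets passed lower.

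In the remaining pathway lists 0 genes passed by limma. At an unadjusted p under 0.05, 8.34% of all names were higher and 11.9% lower, beside which the counts below are to be read. Among 16 genes of fatty acid synthesis and desaturation, 2 were higher and 0 lower at an unadjusted p under 0.05, and Scd1, the main desaturase, was at 4193, 7404 and 6439 FPKM against 4039, 2451 and 3354 FPKM (adjusted p = 0.28). Of 26 genes of fatty acid oxidation and PPAR alpha targets, 4 were higher and 2 lower at that level, and the median was 0.16. Cpt1a, the gate of mitochondrial oxidation, was at 235, 219 and 276 FPKM against 335, 328 and 367 FPKM (log2 fold change 0.50, adjusted p = 0.087), a direction that turned to -0.52 where only the transcript with the highest mean or only known transcripts were used. Among 12 genes of fatty acid uptake and PPAR gamma targets, 3 were higher and 2 lower unadjusted, and Cd36, a fatty acid translocase, was at 144, 161 and 141 FPKM against 73.7, 74.8 and 105 FPKM without overlap (log2 fold change -0.83, adjusted p = 0.075). Of 22 genes of cholesterol synthesis, 4 were lower and 0 higher unadjusted, with a median log2 fold change of -0.10. Among 16 genes of sphingolipid synthesis 1 was higher and 5 lower, among 13 of sphingolipid breakdown 2 and 4, and among 13 of phospholipase A2, LCAT and LPCAT 1 and 0.

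In the lists of stress and immune genes 0 members passed as well. Counted as higher and lower at an unadjusted p under 0.05, these were 1 and 2 of 11 genes of the integrated stress response, 1 and 5 of 19 chaperones of the endoplasmic reticulum, 1 and 2 of 18 clock genes, 0 and 1 of 17 interferon-stimulated genes, 0 and 0 of 8 genes of MHC class II and 0 and 1 of 22 genes of injury and cytoskeleton. Over all names, 8.34% were higher and 11.9% lower at that level. Of the conjugating families, taken up after their values were seen, 1 of 6 sulfotransferase genes passed lower, namely Sult1e1, with 4 of 6 lower unadjusted, and 0 of 11 Ugt genes passed, with 8 of 11 lower unadjusted and 0 higher. Of 75 cytosolic ribosomal protein genes, 17 were higher and 0 lower unadjusted and the median was 0.23, and of 84 subunits of oxidative phosphorylation, 7 were higher and 5 lower and the median was 0.07.

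Several other genes that passed were picked out after their values were seen. Akr1d1, a reductase of bile acid and steroid synthesis, was at 95.1, 109.6 and 104 FPKM in HFD livers and at 53.2, 34.1 and 45.4 FPKM in LU livers (log2 fold change -1.22, adjusted p = 0.0095). Aldh1a1, which makes retinoic acid, was at 1386, 1346 and 1403 FPKM against 865, 699 and 765 FPKM (adjusted p = 0.014). Lower levels were also found for Fmo5, a monooxygenase (-0.64, adjusted p = 0.04), and Nfe2l1, which encodes a relative of NRF2 (-0.64, adjusted p = 0.04). Pnpla7, a lysophospholipase, was higher, at 82.8, 67.2 and 61.3 FPKM against 133, 117 and 138 FPKM (log2 fold change 0.87, adjusted p = 0.0095), and passed with any LU or HFD liver left out. Mlycd, which degrades malonyl-CoA and thereby favours fatty acid oxidation, was at 57.6, 54.7 and 64.4 FPKM against 83.7, 81.3 and 85.8 FPKM (log2 fold change 0.50, adjusted p = 0.04). With GC correction Mlycd and Fmo5 did not pass (adjusted p = 0.12 and 0.06). Mlycd passed in 0 of the 6 fits with an LU or HFD liver left out (adjusted p up to 0.208), Fmo5 and Nfe2l1 in that without LU 8 alone (up to 0.2), Aldh1a1 in those without HFD 12, LU 2 or LU 8 (up to 0.078), and Akr1d1 in those other than without LU 3 (0.055). Among the 10 largest drops, Slc22a27, a liver transporter, was at 4.65, 6.97 and 5.05 FPKM against 1.08, 0.614 and 2.48 FPKM (log2 fold change -1.51, adjusted p = 0.014, and up to 0.076 without HFD 15, HFD 18, LU 2 or LU 3). The names Gm11808 and Cd99 each had a log2 fold change of -1.41, with an adjusted p of 0.042 and 0.014 respectively. Gm11808 did not pass without HFD 12, HFD 18, LU 2 or LU 3 (up to 0.178) and Cd99 without LU 2 or LU 3 (up to 0.078). The transcripts under the name Cd99 lay on an unplaced scaffold under another M21 gene, so this value says nothing of Cd99. A further 73 called names comprised 20 higher ones, with log2 fold changes of 0.44 or more, and 53 lower ones, from -1.38 to -0.48.

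Markers of the cell types that a liver sample can hold were compared as well, and 0 of them passed by limma. At an unadjusted p under 0.05, 2 of 12 hepatocyte and 2 of 5 lymphocyte markers tested were higher in LU livers. At that level 1 of 15 macrophage and 1 of 10 endothelial markers tested were lower. Over all names, 8.34% were higher and 11.9% lower. Hepatocyte markers were abundant in all livers and went both ways, with a log2 fold change above 0 for 5 of the 12 and below 0 for 7. The LU livers lay above the HFD livers for 2 of them and below for 2, against 13.1% and 16.9% of all names. Apoa1 was at 3384 to 4259 FPKM in HFD livers and 5826 to 6993 FPKM in LU livers, and Cps1 at 535 to 647 and 422 to 470 FPKM. Albumin was listed at 0 in 11 of the 12 livers and at 19853 FPKM in LU 3, so a value of 0 in this table can be a failed estimate. The summed level of 15 macrophage and Kupffer cell markers was 293 to 441 FPKM in HFD livers and 229.8 to 399.7 FPKM in LU livers, that of 12 stellate cell and fibroblast markers 143 to 176 and 139 to 188 FPKM, and that of 10 endothelial markers 150.5 to 164 and 146 to 195 FPKM. The sum of 8 lymphocyte markers was 7.57 to 9.55 FPKM in HFD livers and 11.9 to 14.4 FPKM in LU livers without overlap. Ighm was its largest single part, and the other 7 summed to 5.22, 4.11 and 3.61 FPKM in HFD livers and 5.19, 7.99 and 4.31 FPKM in LU livers, which overlapped. The sum of 6 adipocyte markers, most of it Cfd and Cidec, was 132 to 177 and 241 to 369.9 FPKM. Each of these genes alone overlapped between the groups. Cfd was at 58.9 to 104 FPKM in HFD livers and 71.3 to 265 FPKM in LU livers, and Cidec at 72.9 to 83.4 and 71.9 to 169 FPKM. The defining adipocyte genes were below the filter. Adipoq was at 0.0369, 0 and 0 FPKM in HFD livers and at 0.759, 0.508 and 0.5 FPKM in LU livers. Lep was listed at 0 in the 3 HFD livers and at 0.176, 0.139 and 0.187 FPKM in LU livers. Plin1 and Retn were below the filter as well, and the groups overlapped in Retn but not in Plin1. The part of lymphocytes and adipocytes in the differences above was not tested. Cholangiocyte, erythroid and exocrine pancreas markers overlapped between the groups, with sums of 42.3 to 62.4, 94.7 to 129 and 9.13 to 11.7 FPKM in HFD livers and 48 to 111, 88.1 to 126 and 9.22 to 16.3 FPKM in LU livers. The pancreas sum was Cela1 alone, since Cpa1, Ctrb1, Pnlip, Amy2a5 and Prss2 were listed at 0 in the HFD and LU livers.

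Against CLE livers, which received the whole leaf extract at another dose, LU livers differed in 1 of 11566 names (0.00865%), and 508 (4.39%) passed at an unadjusted p. This was Gm10275, a transcribed processed pseudogene (chromosome 10, 29698746 to 29699380). It stood at 2.49, 1.73 and 2.27 FPKM in HFD livers, at 0.37, 0.298 and 0.325 FPKM in LU livers, at 3.05, 3.23 and 2.57 FPKM in CLE livers and at 1.51, 1.94 and 1.82 FPKM in ND livers. LU livers thus lay below all others, with log2 fold changes of -1.24 for LU against HFD (adjusted p = 0.001) and 1.57 for CLE against LU (adjusted p = 0.00012). As a processed pseudogene it can share fragments with its parent gene, so the value is uncertain. Mogat1 was at 6 to 13.2 FPKM in CLE livers, Cyp4a12b at 58.3 to 80.6 FPKM and Gclc at 97 to 110.2 FPKM, and the log2 differences between CLE and LU were -0.11, 0.18 and 0.10 with adjusted p of at least 0.97. A p of this size does not show that the additions act alike, and the standard error of these differences was 0.21, 0.19 and 0.14.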

How the data were processed

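Liver mRNA of 12 mice, 3 in each diet group, was measured by paired-end sequencing. Per the labels, the submitters' processing notes name CASAVA 1.8.2, Bowtie2 2.2.3, TopHat2 2.0.12 and Cufflinks 2.2.1. The authors deposited FPKM values for 152210 known and assembled transcripts. The genome build is not given in the sources used here, but 87.6% of known transcripts had the start and end of GENCODE M21 (GRCm38), from which coordinates were taken. The study's methods name normalization factors by DEGES and edgeR, and whether these values carry them is not stated. A second normalization would shift all genes of a library together.

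FPKM were summed per gene name as deposited, names averaging 0.5 FPKM or more across all livers were kept, and log2(FPKM + 1) was fitted by limma 3.58.1 (R 4.3.3, trended variance) over all 4 groups, with Benjamini-Hochberg adjustment over 11566 names. Fold changes on this scale understate those of low genes. Of these names, 10886 drew at least 90% of their FPKM from 1 M21 gene and 514 lay over more than 1 locus. FPKM carry no depth, so no counting interval is given. On data simulated for LU against HFD, 194 of 200 changed genes (log2 change 1.5) were recovered with 9 false calls. Each simulated gene varied independently of the others and without a GC trend. The called names of the livers had smaller changes, with a median log2 fold change of 0.84 for higher and -0.88 for lower ones. Whether these rates hold for the livers was therefore not tested.

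Genes were chosen for naming as the 10 largest called changes in each direction, called list members and up to 3 members with the smallest p of each list. Lipid genes named by the study and names called between CLE and LU were chosen too. Not all genes so chosen are described above, among them most of those lipid genes. Others were named after their values were seen, as stated, and some genes are not reported here by name. The members and lists were chosen with earlier results of these data known. Alternatives were other filters, pseudocounts, scalings, transcript choices, GC and length corrections, the 2 groups alone and each liver left out. Sums by M21 gene, names with at least 90% from 1 M21 gene the list counts under each alternative and the list counts without members that reached the filter through 1 group were added after seeing the data.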

Additional observations from a re-analysis of the deposited data

Results flagged for a closer look

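Gm10275 was the 1 name that differed between the LU and CLE livers, under the same high-fat diet (limma, adjusted p = 0.00012, log2 difference of CLE minus LU 1.57, all 3 CLE livers above all 3 LU livers). It is a transcribed processed pseudogene, with values of 0.298 to 0.37 FPKM in LU livers and 2.57 to 3.23 FPKM in CLE livers.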

How the results depend on the processing

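The number of names called for LU against HFD, 119, was 57 without the filter on low values, 262 with the 2 groups alone and 11 to 545 with each liver left out. The higher names, 35, were 18, 83 and 3 to 203 under those settings, 23 with known transcripts only and 22 with GC correction. The lower names, 84, were 39, 179 and 8 to 342. For CLE against LU the count of 1 became 3 with no filter, 0 with a mean of at least 5 FPKM, 2 with quantile normalization, 2 with the highest transcript, 2 with known transcripts only and 1 to 3 with each liver left out. Gm10275 lay below 5 FPKM in all livers, so it was not tested under the filter of 5 FPKM. NRF2 targets called lower, 8, were 4 with no filter, 5 with the highest transcript, 4 with GC correction, 5 with GC and length correction and 0 to 9 with each liver left out. Male-biased genes called higher, 5, were 1, 2, 3, 3 and 1 to 10 under the same settings. With a mean of at least 5 FPKM, female-biased genes called lower went from 4 to 1 as those tested went from 12 to 6. Under the same filter, CAR and PXR targets called lower went from 5 to 2 as those tested went from 17 to 13. With each liver left out, CAR and PXR targets called lower were 2 to 5. Directions turned for genes that had not passed. With the highest transcript, Arnt was 0.041, Cpt1a -0.52 and Hlf 0.24 on the log2 scale. With known transcripts only, Cpt1a was -0.52, Slc27a2 -0.0058 and Sphk2 -0.19. With each liver left out, Cd74 ran from -0.17 (without LU 3) to 0.47 and H2-Ab1 from -0.18 (without LU 3) to 0.52. Sptlc2 was 0.019 with GC, 0.011 with length and 0.073 with both corrections, and ran from -0.26 to 0.013 (without HFD 18) with each liver left out. The causes were not tested, apart from filters that change the number of names tested. For the 44 called genes named, 558 of 646 other values kept direction and call and 88 lost the call, as did 184 of 528 with a liver left out. No paired analysis was possible because the LU and HFD livers share no mouse number. Unknown depth and 3 livers a group limit the precision.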
